A study of Mus musculus with 14 samples.

Results

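The 10 enzymes described here carry carbon from threonine, serine and glycine into the folate pool: Tdh, Gcat, Gldc, Shmt1, Shmt2, Mthfd1l, Mthfd2, Phgdh, Psat1 and Psph. They were chosen by gene symbol, and every probe annotated to one of these symbols was taken. Of the 10 symbols, 8 had a probe, and these had 10 of the 25697 probes on the array. Tdh and Mthfd1l had no listed probe and were not analysed here. Of the 10 probes, 8 probes of 6 genes passed the filter on dim probes and were tested. Gcat and Psph did not pass it.

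Expression was measured on 14 Illumina MouseRef-8 v2.0 bead arrays in 6 groups of cultured mouse cells. Y-SC (n = 3) were fibroblasts from skin of B6CBAF1 embryos at E17.5, and A-SC (n = 3) were fibroblasts from tail tip skin of 1.5-year-old B6CBAF1 mice. Induced pluripotent stem cells (iPSC) were made from these fibroblasts with retroviruses for mouse MYC (pEYK-mMYC) and for OCT4, SOX2 and KLF4 (pMX-mOCT4, pMX-mSOX2 and pMX-mKLF4), so all iPSC groups shared these 4 factors. Y-iPSC (n = 2) came from the embryonic and A-iPSC (n = 2) from the tail tip fibroblasts. A-iPSC-ZSCAN10 (n = 2) came from tail tip fibroblasts that also received doxycycline-inducible ZSCAN10, induced with 2 µg/ml doxycycline. No strain or genotype was given for the embryonic stem cells (ESC, n = 2). ESC and iPSC grew in medium with 15% serum and 1000 U/ml leukaemia inhibitory factor and fibroblasts in medium with 10% serum, so medium and cell type cannot be told apart. Donor age cannot be told apart from body site and developmental stage, nor ZSCAN10 from doxycycline. Whether arrays of a group came from separate cultures or animals is not stated, and the p-values then reflect only how far these samples differ within groups, which may be technical. The number of arrays limits the precision.

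As background, glycine and one-carbon units have several routes into a cell. The glycine cleavage system of the mitochondrion, whose decarboxylase is Gldc, splits glycine and passes a carbon unit to tetrahydrofolate. Serine hydroxymethyltransferase does the same from serine, in the cytosol (Shmt1) or the mitochondrion (Shmt2), and Mthfd2 then oxidises the mitochondrial folate unit. Phgdh, Psat1 and Psph act in this order to make serine from a glycolytic intermediate. Mouse ESC are known to break down threonine through Tdh and Gcat, and to depend on it.

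Promoter windows of 4 genes are shown because Gldc and Shmt1 were the members with higher signals in ESC than in fibroblasts, and Shmt2 and Psat1 those that differed between A-iPSC-ZSCAN10 and A-iPSC. They come from RefSeq (GRCm38.p6), run 5′ to 3′ on the gene's strand from 250 bases before to 50 bases after the annotated start, and all 4 genes lie on the minus strand. Of the 10 symbols, 9 had an entry, with 10 windows of 300 bases. Capitals mark the letters of the CCAAT box (CCAAT) and the GC box (GGGCGG), read on both strands.
Gldc, chr19:30175392-30175691: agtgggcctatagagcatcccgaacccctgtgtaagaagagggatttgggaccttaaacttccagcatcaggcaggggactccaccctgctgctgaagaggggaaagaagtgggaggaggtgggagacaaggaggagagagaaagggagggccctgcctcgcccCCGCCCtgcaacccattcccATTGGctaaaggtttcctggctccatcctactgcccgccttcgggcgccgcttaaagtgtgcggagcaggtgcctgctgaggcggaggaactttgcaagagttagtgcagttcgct
Shmt1, chr11:60811216-60811515: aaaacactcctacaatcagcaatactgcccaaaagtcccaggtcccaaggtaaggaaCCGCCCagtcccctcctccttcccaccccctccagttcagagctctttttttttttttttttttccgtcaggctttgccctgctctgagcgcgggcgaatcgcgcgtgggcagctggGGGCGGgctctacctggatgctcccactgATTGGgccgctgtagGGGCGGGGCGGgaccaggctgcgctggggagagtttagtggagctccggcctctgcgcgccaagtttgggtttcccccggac
Shmt2, chr10:127522395-127522694: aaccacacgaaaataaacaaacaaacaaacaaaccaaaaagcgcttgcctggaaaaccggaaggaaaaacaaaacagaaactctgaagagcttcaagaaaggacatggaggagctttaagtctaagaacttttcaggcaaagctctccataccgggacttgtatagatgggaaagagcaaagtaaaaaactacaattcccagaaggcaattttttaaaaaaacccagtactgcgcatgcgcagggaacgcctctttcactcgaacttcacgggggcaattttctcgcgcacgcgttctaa
Psat1, chr19:15925010-15925309: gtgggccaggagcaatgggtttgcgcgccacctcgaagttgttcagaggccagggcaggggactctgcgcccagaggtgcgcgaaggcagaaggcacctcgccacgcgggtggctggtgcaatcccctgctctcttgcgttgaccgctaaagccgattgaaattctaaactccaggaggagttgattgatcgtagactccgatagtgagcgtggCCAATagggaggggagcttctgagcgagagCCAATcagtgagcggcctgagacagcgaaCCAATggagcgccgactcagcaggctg
The Gldc window held 1 CCAAT match and 1 GC box, and the Shmt1 window held 1 CCAAT match and 4 GC boxes, of which 2 overlapped by 1 base. The Psat1 window shown held 3 CCAAT matches and no GC box, and a second annotated Psat1 window held 2 GC boxes. The Shmt2 window held neither. Of the members' 10 windows, 6 held CCAAT, against 37.4% of 32851 windows of the same length over all genes, and 6 held the GC box, against 35.7%. The letters TGATGNAA (an ATF4 response element), ATGCAAAT (the octamer) and TCAAGGTCA (an ESRRB site) were in 0 of the members' 10 windows and in 3.97%, 1.74% and 0.423% of all windows. CACGTG (an E-box) was in 1, that of Gcat, against 7.15% of all. No binding was measured, and a match is a run of letters only.

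Values below are log2 signals after background correction and quantile normalization, and differences are log2 differences between group means ± SE. A probe counted as higher or lower when its Benjamini-Hochberg adjusted p, from limma over 14742 tested probes, was under 0.05. A probe was detected on an array when its detection p was under 0.05. Probe signals are not compared between genes. Arrays of groups this small can fail to overlap with no true difference, so overlap is given as description only. Its share over all probes was not counted.

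Several arrays stood apart. On all 6 iPSC arrays Pou5f1 was between 11.37 and 13.05 and Sox2 between 9.41 and 11.69, against 11.58 and 12.26 and 9.11 and 9.46 in ESC. Esrrb lay between 4.44 and 5.17 there, against 12.64 and 12.85 in ESC, Nanog between 4.44 and 6.92 against 12.07 and 12.12, and Zfp42 between 4.89 and 5.76 against 11.13 and 11.36. So these 3 markers, high in ESC, were far lower on every iPSC array. By the test 6 of 8 pluripotent markers, these and Dppa5a, Utf1 and Tdgf1, were lower than ESC in each iPSC group. Only 1, Sox2, was higher, in Y-iPSC and A-iPSC. Pou5f1 and Sox2 were among the introduced factors, and whether their probes read the introduced copies was not tested. The Y-SC array coded 17 had the lowest mean of 8 fibroblast markers among fibroblasts, 7.997 against 9.05 to 10.48. It also had the highest Lyz2 (11.78) and Adgre1 (7.16), which mark macrophages. It detected 6 of the 8 fibroblast markers, Lum not among them, and the A-SC array without a code also detected 6. Macrophage markers were measured with 4 genes, and their summed signal was 1241 to 4846 in Y-SC and 573 to 882 on the other 11 arrays. Signals of 4 fibroblast arrays, Y-SC coded 16 and 17 and A-SC coded 1.3 and 1.4, were written with 1 decimal and had higher maxima than the other 10. Whether this second export format marks a technical batch is not stated. Some of the results that rest on Y-SC 17, on the A-SC array without a code or on these 4 arrays are given with and without them.

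**Figure D1:**
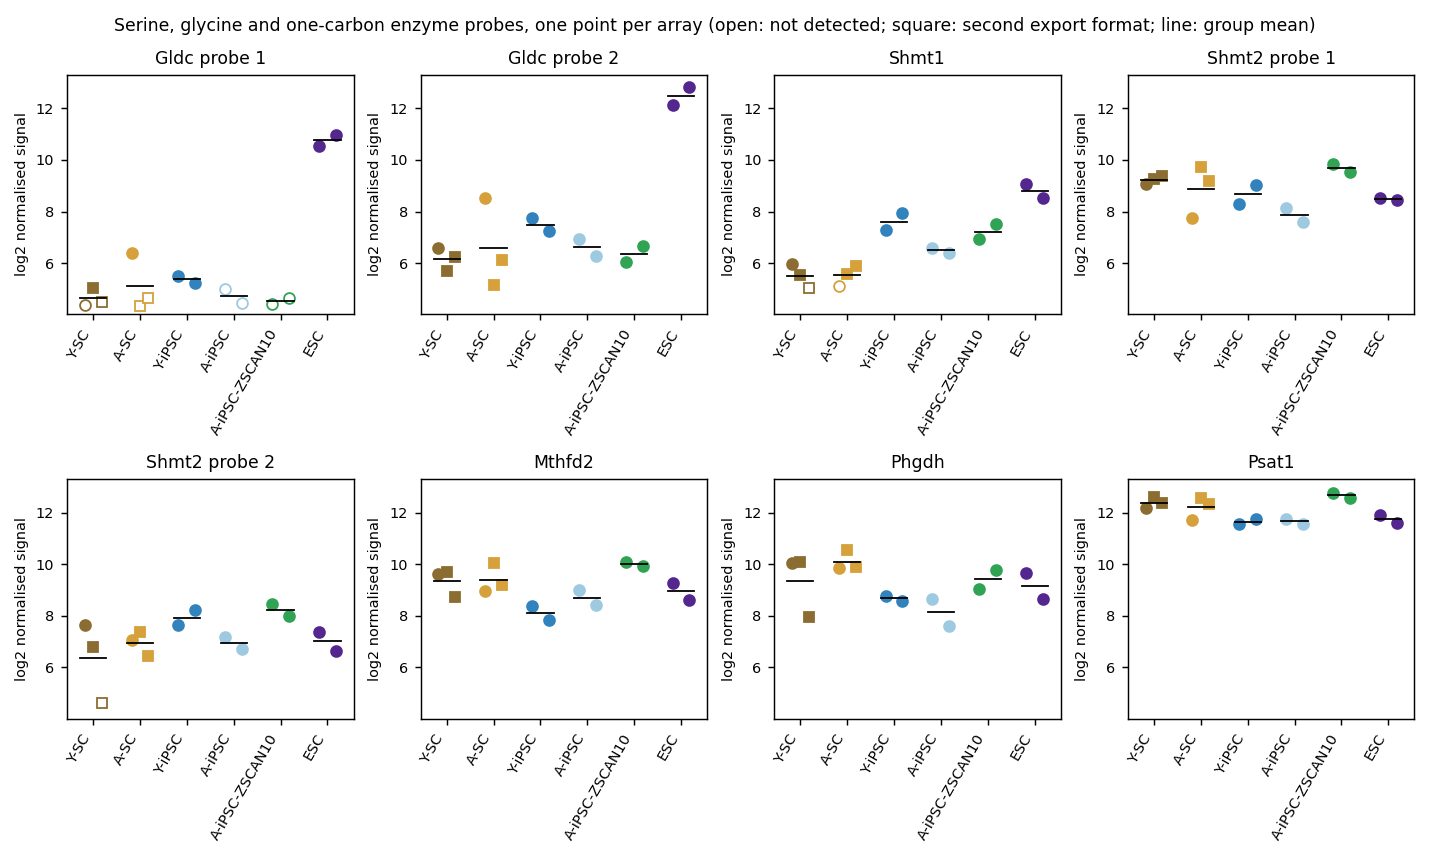
Log2 normalised signal (vertical axis) of the 8 tested probes on each of the 14 arrays, by group (horizontal axis), with open symbols for arrays on which the probe was not detected, squares for the second export format and a line at the group mean. Gldc probe 2 lay at 12.13 and 12.81 on the ESC arrays and at 8.53 or below on the other 12.

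The first step of threonine breakdown, Tdh, was not analysed here. Gcat, which finishes that route by making glycine, was detected on 3 of 14 arrays, 1 each of Y-SC, A-iPSC and ESC. Its log2 signal ran from 4.62 to 5.31 over the 14 arrays, and the highest was the ESC array coded H. Psph, the last enzyme of serine synthesis, was detected on 0 of 14 arrays, at 4.31 to 4.59. For both genes these signals are not well above background, and no comparison was made.

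Gldc, the decarboxylase of the glycine cleavage system, was the member that differed most between groups, and its high signals were in ESC. On probe 2 the log2 signals were 12.13 and 12.81 in ESC. They were 7.77 and 7.23 in Y-iPSC, 6.93 and 6.29 in A-iPSC, and 6.03 and 6.65 in A-iPSC-ZSCAN10. In Y-SC they were 6.58, 5.71 and 6.25, and in A-SC 8.53, 5.14 and 6.13. Both ESC arrays lay above all 12 others, and the group means of the other 5 groups ran from 6.18 to 7.50. The deposited bead signals behind these values were 4502 and 7033 in ESC and 132 to 378 on the other arrays.

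Probe 1 of Gldc gave the same order at its top. It read 10.53 and 10.98 in ESC, and 5.51 and 5.23 in Y-iPSC. It was detected on both arrays of ESC and of Y-iPSC, on 1 of 3 arrays of Y-SC and of A-SC, and on 0 of 4 arrays of A-iPSC and A-iPSC-ZSCAN10. Over the 14 arrays the 2 Gldc probes correlated at r = 0.978, a value that rests largely on the 2 ESC arrays, far above all others on both probes.

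Gldc was higher in ESC than in fibroblasts by 5.87 ± 0.45 on probe 1 (58.6-fold, adjusted p = 2.75e-06 by limma, n = 2 and 6) and by 6.08 ± 0.66 on probe 2 (67.8-fold, adjusted p = 4.08e-05). Probe 1 was detected on 2 of the 6 fibroblast arrays, and the fold there varies with the added offset. All 3 iPSC groups were lower than ESC. Y-iPSC differed from ESC by -5.39 ± 0.55 on probe 1 (adjusted p = 6.83e-05) and by -4.97 ± 0.81 on probe 2 (adjusted p = 0.002). A-iPSC were at least 50.4-fold lower than ESC on probe 1, which no A-iPSC array detected (adjusted p = 1.73e-05), and differed by -5.86 ± 0.81 on probe 2 (adjusted p = 3e-04). A-iPSC-ZSCAN10 were at least 53.7-fold lower on probe 1 (adjusted p = 2.14e-05) and differed by -6.13 ± 0.81 on probe 2 (adjusted p = 0.000508). These 3 comparisons share the same ESC arrays. Each bound is against the lowest detected signals on the arrays of the iPSC group concerned. All 8 Gldc calls held in every fit that left out 1 array and under every other setting tried.

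No iPSC group differed from its own fibroblasts in Gldc by the test. On probe 2 Y-iPSC were 1.32 ± 0.74 above Y-SC (95% interval -0.30 to 2.94, adjusted p = 0.227), with no overlap between the arrays. A-iPSC differed from A-SC by 0.01 ± 0.74 (95% interval -1.61 to 1.63, adjusted p = 0.993). The A-SC array without a code, at 8.53 on probe 2 and 6.41 on probe 1, was the highest of all arrays outside ESC, while its group mates read 5.14 and 6.13 on probe 2. Without that array A-iPSC lay 0.98 above A-SC on probe 2 (adjusted p = 0.101), and without the second export format, where it is the only A-SC array, A-iPSC lay 1.92 below (log2 difference -1.92, adjusted p = 0.0214). That p takes the spread from the other groups and assumes that the lone A-SC array varies like them. The direction of that difference rests on 1 array.

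Shmt1, the cytosolic serine hydroxymethyltransferase, had graded signals, lowest in fibroblasts and highest in ESC. The values were 9.07 and 8.52 in ESC and 7.29 and 7.94 in Y-iPSC. A-iPSC-ZSCAN10 arrays read 6.92 and 7.51, and A-iPSC arrays 6.58 and 6.41. In Y-SC they were 5.95, 5.54 and 5.04 and in A-SC 5.10, 5.58 and 5.90, with the lowest array of each group not detected. All ESC and iPSC arrays lay above all fibroblast arrays, and only the Y-iPSC and A-iPSC-ZSCAN10 arrays overlapped among the ESC and iPSC groups.

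Shmt1 was higher in ESC than in fibroblasts by 3.28 ± 0.31 (9.70-fold, adjusted p = 1.51e-05 by limma, n = 2 and 6). It was higher in Y-iPSC than in Y-SC by 2.10 ± 0.35 (4.29-fold, adjusted p = 0.00124), and by 1.87 without Y-SC 17 (adjusted p = 0.00403). A-iPSC-ZSCAN10 exceeded A-SC by 1.69 ± 0.35 (3.23-fold, adjusted p = 0.00611), a call lost without the A-iPSC-ZSCAN10 array coded 7 (adjusted p = 0.087). A-iPSC lay 0.97 ± 0.35 above A-SC and did not pass (95% interval 0.21 to 1.73, adjusted p = 0.0506). The changes from fibroblast to iPSC differed between the tail tip and the embryonic origin by -1.13 ± 0.49, which did not pass either (adjusted p = 0.244). Fibroblast arrays that did not detect Shmt1 make these sizes vary with the added offset.

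Against ESC, Shmt1 was lower in A-iPSC by -2.30 ± 0.38 (adjusted p = 0.000929) and in A-iPSC-ZSCAN10 by -1.58 ± 0.38 (adjusted p = 0.0189). The second of these was lost without A-iPSC-ZSCAN10 3 (adjusted p = 0.179), without ESC D (adjusted p = 0.15) and without ESC H (adjusted p = 0.052). Y-iPSC differed from ESC by -1.18 ± 0.38 (95% interval -2.02 to -0.35) and did not pass (adjusted p = 0.0601). Among the iPSC groups, Shmt1 in A-iPSC was below Y-iPSC by -1.12 ± 0.38, with no overlap between the arrays and an adjusted p of 0.0869. A-iPSC-ZSCAN10 exceeded A-iPSC by 0.72 ± 0.38 (adjusted p = 0.233). A-iPSC-ZSCAN10 and Y-iPSC differed by -0.40 ± 0.38 (adjusted p = 0.761), so in the order of group means no neighbours from ESC down to A-iPSC differed by the test.

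Shmt2, the mitochondrial serine hydroxymethyltransferase, was read by 2 probes that did not run together over the 14 arrays (r = 0.134). Probe 1 gave 9.85 and 9.53 in A-iPSC-ZSCAN10, 8.14 and 7.60 in A-iPSC, 8.30 and 9.04 in Y-iPSC, and 8.54 and 8.45 in ESC. In Y-SC it gave 9.09, 9.25 and 9.37, and in A-SC 7.76, 9.71 and 9.19. Both A-iPSC-ZSCAN10 arrays lay above every other iPSC and ESC array. Probe 2 gave 8.45 and 7.99 in A-iPSC-ZSCAN10, 7.17 and 6.71 in A-iPSC, 7.63 and 8.24 in Y-iPSC, and 7.36 and 6.66 in ESC. Its fibroblast values were 7.66, 6.80 and 4.62 in Y-SC, the last not detected on Y-SC 17, and 7.07, 7.36 and 6.46 in A-SC. The probes differed most in the fibroblasts, where probe 1 was lowest on the A-SC array without a code and probe 2 on Y-SC 17.

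Shmt2 was higher with ZSCAN10 (A-iPSC-ZSCAN10) than without it (A-iPSC) by 1.82 ± 0.50 on probe 1 (3.53-fold, adjusted p = 0.0309 by limma, n = 2 and 2). Probe 2 lay 1.28 ± 0.74 higher and did not pass (95% interval -0.34 to 2.90, adjusted p = 0.277). The arrays of the groups did not overlap on either probe, which with 2 arrays a group can occur with no true difference. The call on probe 1 was lost whichever of the 4 arrays was left out, with adjusted p of up to 0.217, and without the filter on dim probes (adjusted p = 0.0651). A-iPSC lay below A-SC by -1.02 ± 0.46 on probe 1 (adjusted p = 0.113 by limma), and by -1.58 without the A-SC array that has no code (adjusted p = 0.0026). On probe 2 A-iPSC differed from A-SC by -0.02 ± 0.68 (adjusted p = 0.984).

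Mthfd2, the mitochondrial methylenetetrahydrofolate dehydrogenase, was highest in A-iPSC-ZSCAN10 and lowest in Y-iPSC. It read 10.09 and 9.92 in A-iPSC-ZSCAN10, 8.99 and 8.42 in A-iPSC, 8.40 and 7.84 in Y-iPSC, and 9.27 and 8.63 in ESC. Y-SC gave 9.63, 9.71 and 8.72, and A-SC gave 8.98, 10.04 and 9.21. The Y-iPSC arrays lay below all 3 Y-SC arrays, of which Y-SC 17 was the lowest. Mthfd2 was lower in Y-iPSC than in Y-SC by -1.23 ± 0.39 (adjusted p = 0.0417 by limma, n = 2 and 3), and by -1.55 without Y-SC 17 (adjusted p = 0.0154). That call was lost in the other 4 fits that left out 1 array, with adjusted p of 0.0968 without the Y-SC array that has no code, 0.124 without Y-SC 16, 0.0565 without Y-iPSC 12 and 0.244 without Y-iPSC 4. It was also lost under 5 of 8 other settings.

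Between the iPSC groups, Mthfd2 in A-iPSC-ZSCAN10 lay 1.88 ± 0.43 above Y-iPSC (95% interval 0.94 to 2.83) and 1.298 ± 0.43 above A-iPSC (95% interval 0.35 to 2.24). Neither passed (adjusted p = 0.0617 and 0.0631), and the arrays did not overlap in either pair. These 2 comparisons share the A-iPSC-ZSCAN10 arrays.

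Phgdh, which commits the glycolytic intermediate 3-phosphoglycerate to serine synthesis, ran from 7.61 to 10.54. It read 9.85, 10.54 and 9.90 in A-SC and 10.05, 10.08 and 7.96 in Y-SC. In the other groups it read 9.68 and 8.67 in ESC, 9.06 and 9.77 in A-iPSC-ZSCAN10, 8.65 and 7.61 in A-iPSC, and 8.77 and 8.58 in Y-iPSC. All A-SC arrays lay above all ESC and iPSC arrays, and Y-SC 17 was the fibroblast array that did not. Phgdh was lower in A-iPSC than in A-SC by -1.96 ± 0.60 (adjusted p = 0.0254 by limma, n = 2 and 3). The call was lost without A-SC 1.3, without A-iPSC 19, without the filter on dim probes (adjusted p = 0.0602) and without the second export format, where the difference was -1.72 (adjusted p = 0.064) against a single A-SC array whose spread is taken from other groups. Y-iPSC differed from Y-SC by -0.69 ± 0.60 (adjusted p = 0.448), and by -1.39 without Y-SC 17 (adjusted p = 0.0431). The 2 changes differed by -1.27 ± 0.84, which did not pass (adjusted p = 0.454).

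Psat1, the aminotransferase that follows Phgdh, varied least of the tested members, from 11.55 to 12.77. It read 12.77 and 12.59 in A-iPSC-ZSCAN10, against 11.75 and 11.57 in A-iPSC, 11.55 and 11.75 in Y-iPSC and 11.92 and 11.59 in ESC. The fibroblasts read 12.20, 12.60 and 12.36 in Y-SC and 11.73, 12.59 and 12.34 in A-SC. The A-iPSC-ZSCAN10 arrays lay at the upper end of the fibroblasts and above the other 6 iPSC and ESC arrays. Psat1 was higher with ZSCAN10 (A-iPSC-ZSCAN10) than without it (A-iPSC) by 1.02 ± 0.29 (2.02-fold, adjusted p = 0.0334 by limma, n = 2 and 2). It was lost whichever of the 4 arrays was left out, with adjusted p of up to 0.2. Against Y-iPSC the difference was 1.03 ± 0.29 (adjusted p = 0.121), and against ESC it was 0.92 ± 0.29 (adjusted p = 0.0589). Y-iPSC lay below Y-SC by -0.74 ± 0.26 and did not pass (adjusted p = 0.0622).

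**Figure D2:**
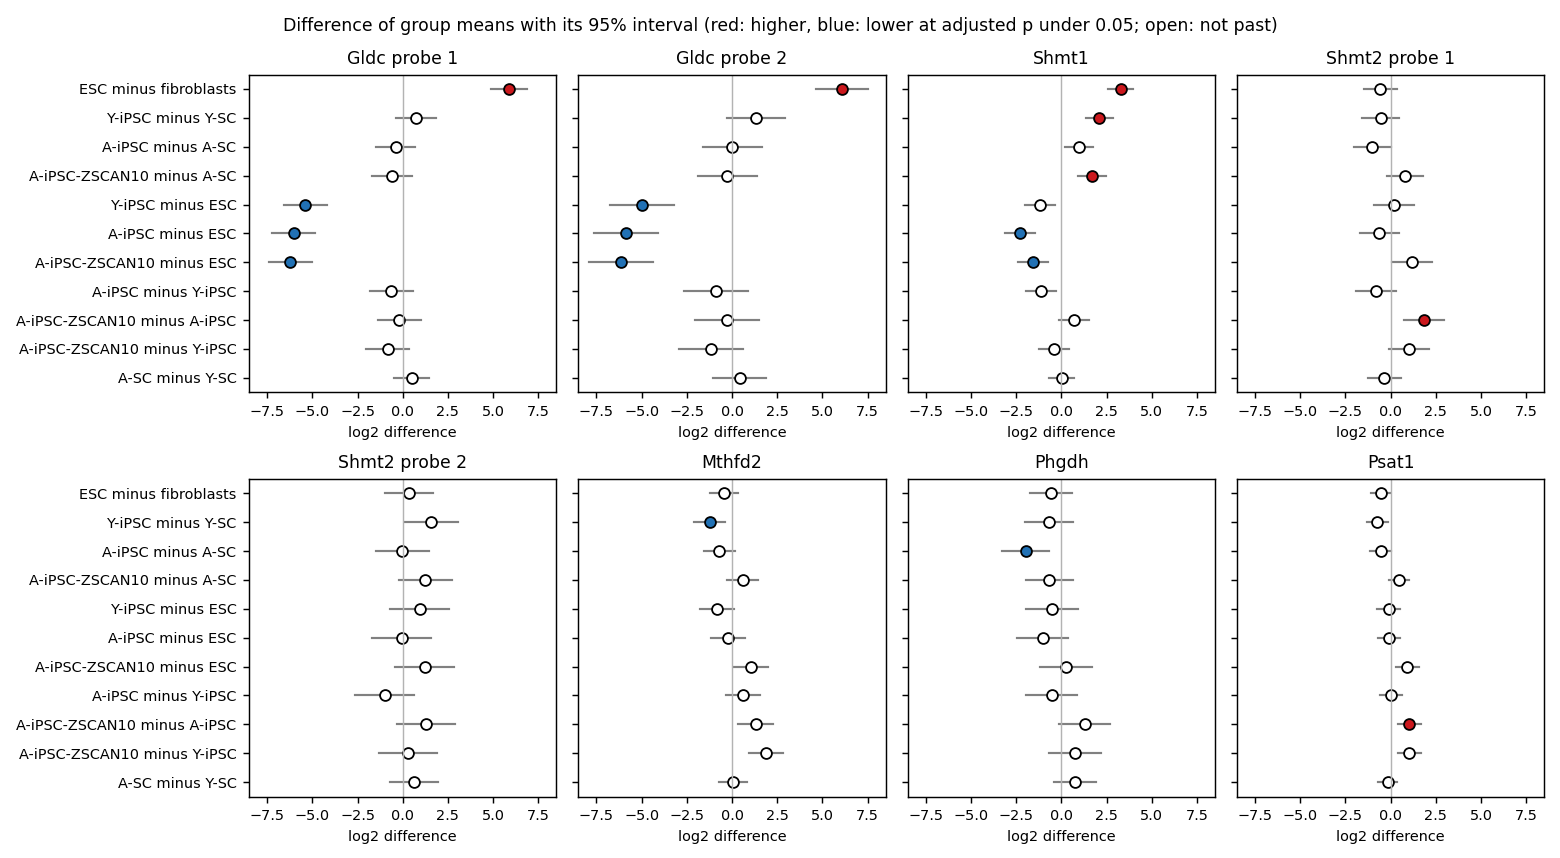
Log2 difference of group means (horizontal axis) with its 95% interval for the 8 tested probes in the 11 comparisons (vertical axis), red where higher and blue where lower at an adjusted p under 0.05, and open where not. Gldc probe 1 is 5.87 higher in ESC than in fibroblasts, while A-SC and Y-SC differ by an adjusted p under 0.05 on 0 of 8 probes.

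In ESC against fibroblasts 3 of 8 probes were higher and 0 lower, where 22.1% of all probes were higher and 20% lower, and the members' median difference was -0.04 against 0.01 over all probes. In Y-iPSC against Y-SC 1 was higher and 1 lower, where 11.7% of all probes were higher and 11.7% lower. A-iPSC against A-SC gave 0 higher and 1 lower, where 17.6% were higher and 15.4% lower. Against A-SC, A-iPSC-ZSCAN10 had 1 higher and 0 lower, where 11.2% were higher and 9.88% lower. Median scaling changed the calls over all probes in that comparison from 1654 higher and 1456 lower to 2331 and 1080, and the median of all probes from 0.05 to 0.15. The 3 probes higher in ESC were both Gldc probes, of 1 gene, and Shmt1. With 8 probes, none of the members' counts in these comparisons is far from the shares over all probes.

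The comparisons with ESC had 2 Gldc probes lower in Y-iPSC, where 6.95% of all probes were lower and 7.1% higher. A-iPSC had 3 of 8 lower, both Gldc probes and Shmt1, where 17.7% of all probes were lower and 17.2% higher. A-iPSC-ZSCAN10 also had 3 lower, where 6.08% were lower and 6.19% higher. In each of these comparisons 2 of the called probes are of 1 gene, Gldc. By the test, 0 members were higher than ESC in any iPSC group. That count depends on the fit in A-iPSC-ZSCAN10, where 3 probes were higher than ESC with array weights (Shmt2 probe 1, Mthfd2 and Psat1) and 4 when only the compared arrays were fitted (these and Shmt2 probe 2). The shares over all probes under those fits are not given here. The members' median difference from ESC was 0.58 in A-iPSC-ZSCAN10, -0.83 in A-iPSC and -0.66 in Y-iPSC, against -0.003, -0.02 and -0.03 over all probes, and the iPSC groups share the ESC arrays.

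Among the iPSC and fibroblast groups few members passed. A-iPSC-ZSCAN10 had 2 of 8 probes higher than A-iPSC and 0 lower, where 7.33% of all probes were higher and 8.37% lower, and the members' median difference was 1.15 against 0.03 over all probes. Under median scaling the calls over all probes in this comparison were 1515 higher and 963 lower, against 1080 and 1234, and the median of all probes moved to 0.16. Mthfd2 then passed as well (1.54, adjusted p = 0.031). Between A-iPSC and Y-iPSC limma called 0 members, where 6.04% of all probes were higher and 4.1% lower. At an unadjusted p under 0.05 were 1 of 8 member probes and 3805 of all 14742 tested probes. Against Y-iPSC limma called 0 members in A-iPSC-ZSCAN10, where 0.631% of all probes were higher and 0.712% lower. Here 2 of 8 member probes and 1938 of 14742 had an unadjusted p under 0.05. In A-SC against Y-SC limma called 0 members, where 0.19% of all probes were higher and 0.224% lower. An unadjusted p under 0.05 was found for 0 of 8 member probes and 1519 of 14742.

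Among the members, Shmt2 probe 1 and Psat1 correlated over the 14 arrays at r = 0.887, Mthfd2 and Psat1 at 0.829 and Mthfd2 and Phgdh at 0.715. Shmt2 probe 2 did not share this, at 0.043 with Psat1 and 0.235 with Mthfd2. Phgdh and Psat1, neighbours in serine synthesis, correlated at 0.521, and Gldc probe 2 and Shmt1 at 0.710. These values describe arrays in 6 groups that share array processing, and are not tests. Of 9998 other genes with 1 probe each, the most like Gldc probe 1 was Jakmip1 (r = 0.985), followed by Ap1m2 (0.977) and Aplnr (0.977). For Gldc probe 2 they were Fam83g (0.962), Sct (0.959) and Jakmip1 (0.959). The values for Gldc rest largely on the 2 ESC arrays, far above all others on both probes. For Shmt1 the most alike genes were Cops3 (0.962), Zfp819 (0.962) and Gpn3 (0.954). For Psat1 they were Uprt (0.928), Slc19a1 (0.896), the reduced folate carrier, and Cars (0.876), a cysteinyl-tRNA synthetase.

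Genes around the members were taken as 4 lists, each gene by its brightest tested probe. Of 13 tested genes of the folate cycle and its use in nucleotide synthesis, 4 were higher and 3 lower in ESC than in fibroblasts. Over all probes 22.1% were higher and 20% lower, so these counts are not far from those shares. Folr1, a folate receptor, was at least 29.6-fold higher (adjusted p = 1.5e-05), as no fibroblast array detected it, and Gart, a purine synthesis enzyme, and Mthfd1, the cytosolic trifunctional folate enzyme, were 1.49 ± 0.36 and 1.48 ± 0.25 higher. Aldh1l2, the mitochondrial formyltetrahydrofolate dehydrogenase, was lower by -4.42 ± 0.57 (adjusted p = 0.000129). The folate carrier Slc19a1 was lower by -1.06 ± 0.27 and Slc25a32, the mitochondrial folate carrier, by -0.78 ± 0.27. The list's median difference was 0.02. Of 5 tested proliferation markers 4 were higher in ESC than in fibroblasts and 0 lower, with a median of 1.86, and their part in these differences was not tested.

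The same list had 4 of 13 genes higher and 0 lower in A-iPSC-ZSCAN10 compared with A-iPSC, with a median difference of 0.92. Over all probes in this comparison 7.33% were higher and 8.37% lower. Folr1 was higher by 4.48 ± 0.63 (adjusted p = 0.00104), where 1 of 2 A-iPSC arrays detected it, Gart by 1.77 ± 0.44 and Fpgs, which adds glutamate tails to folates, by 1.54 ± 0.26. In A-iPSC against ESC 0 were higher and 5 lower, where 17.2% of all probes were higher and 17.7% lower. Folr1 was at -5.11 ± 0.63, Gart at -2.44 ± 0.44 and Tyms, thymidylate synthase, at -2.07 ± 0.58. Of 5 tested proliferation markers 2 were also lower in A-iPSC than in ESC, Mcm2 by -2.81 ± 0.56 (adjusted p = 0.00283) and Mcm5 by -2.12 ± 0.72 (adjusted p = 0.0388), with a median of -1.85, and their part in the folate genes' differences was not tested. In Y-iPSC against ESC 0 were higher and 2 lower in the folate list, and in A-iPSC-ZSCAN10 against ESC 2 were higher and 0 lower. Aldh1l2 was 2.54 ± 0.69 higher in A-iPSC-ZSCAN10 than in ESC (adjusted p = 0.0335).

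In the methionine cycle and transsulfuration, 5 of 10 tested genes were higher in ESC than in fibroblasts and 1 lower, with a median difference of 0.61. Over all probes 22.1% were higher and 20% lower. Cth, which makes cysteine from cystathionine, was higher by 2.29 ± 0.68 (adjusted p = 0.0184). Cbs, the enzyme before it, was at least 2.85-fold higher, since no fibroblast array detected it (adjusted p = 0.000127), and Ahcy, which hydrolyses S-adenosylhomocysteine, was higher by 0.94 ± 0.35. Ahcyl1, a relative of Ahcy, was lower by -1.39 ± 0.29. Cth was higher than in the fibroblasts of origin in all 3 iPSC groups, by 3.20 ± 0.76 with ZSCAN10, 3.21 ± 0.76 in A-iPSC and 3.46 ± 0.76 in Y-iPSC. The first 2 share the A-SC arrays.

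Of 10 tested other enzymes of glycine, serine and threonine, 1 was higher and 5 lower in ESC than in fibroblasts, with a median difference of -0.55. The shares over all probes were 22.1% higher and 20% lower. Sfxn3, a mitochondrial serine transporter relative, was lower by -2.36 ± 0.32, and Gamt, a creatine synthesis enzyme, by -2.13 ± 0.51. Tha1, threonine aldolase, which splits threonine into glycine and acetaldehyde, was at least 2.42-fold lower (adjusted p = 0.0054), and 0 of 2 ESC arrays detected it. Tha1 was detected on all 6 iPSC arrays, at least 5.85-fold above ESC in A-iPSC-ZSCAN10 (adjusted p = 0.0019), at least 7.35-fold in A-iPSC (adjusted p = 0.000381) and at least 6.79-fold in Y-iPSC (adjusted p = 0.00107). Pipox, which oxidises sarcosine to glycine, was 0.86 ± 0.26 higher in ESC than in fibroblasts and 3.63 ± 0.30 higher in A-iPSC than in A-SC. In A-iPSC-ZSCAN10 against A-iPSC 0 of these genes were higher and 1, Pipox, was lower by -1.83 ± 0.32. Over all probes in that comparison 7.33% were higher and 8.37% lower.

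ATF4 is a transcription factor known to raise Phgdh, Psat1, Shmt2 and Mthfd2 when amino acids are short. Of 18 tested genes in a list of ATF4 and other targets, 1 was higher and 9 lower in ESC than in fibroblasts, with a median difference of -0.52. Over all probes 22.1% were higher and 20% lower. Chac1, a glutathione-degrading enzyme, was lower by -2.96 ± 0.33, the factor Atf5 by -2.53 ± 0.55 and the stress factor Ddit3 by -2.23 ± 0.65. In A-iPSC-ZSCAN10 against A-iPSC, the comparison in which Shmt2 and Psat1 were higher, 2 of the 18 were higher and 3 lower. The median difference was 0.11, and 7.33% of all probes were higher and 8.37% lower. Atf5 was higher by 3.18 ± 0.68 (adjusted p = 0.0097) and Cars at least 1.56-fold (adjusted p = 0.0449), while Atf3 was lower by -3.29 ± 0.80, Vldlr, a lipoprotein receptor, by -3.18 ± 0.41 and the factor Cebpb by -1.38 ± 0.38. Atf4 itself differed by -0.75 ± 0.92 and did not pass (adjusted p = 0.645). ATF4 protein was not measured, and its part in the differences of Shmt2 and Psat1 was not tested.

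**Figure D3:**
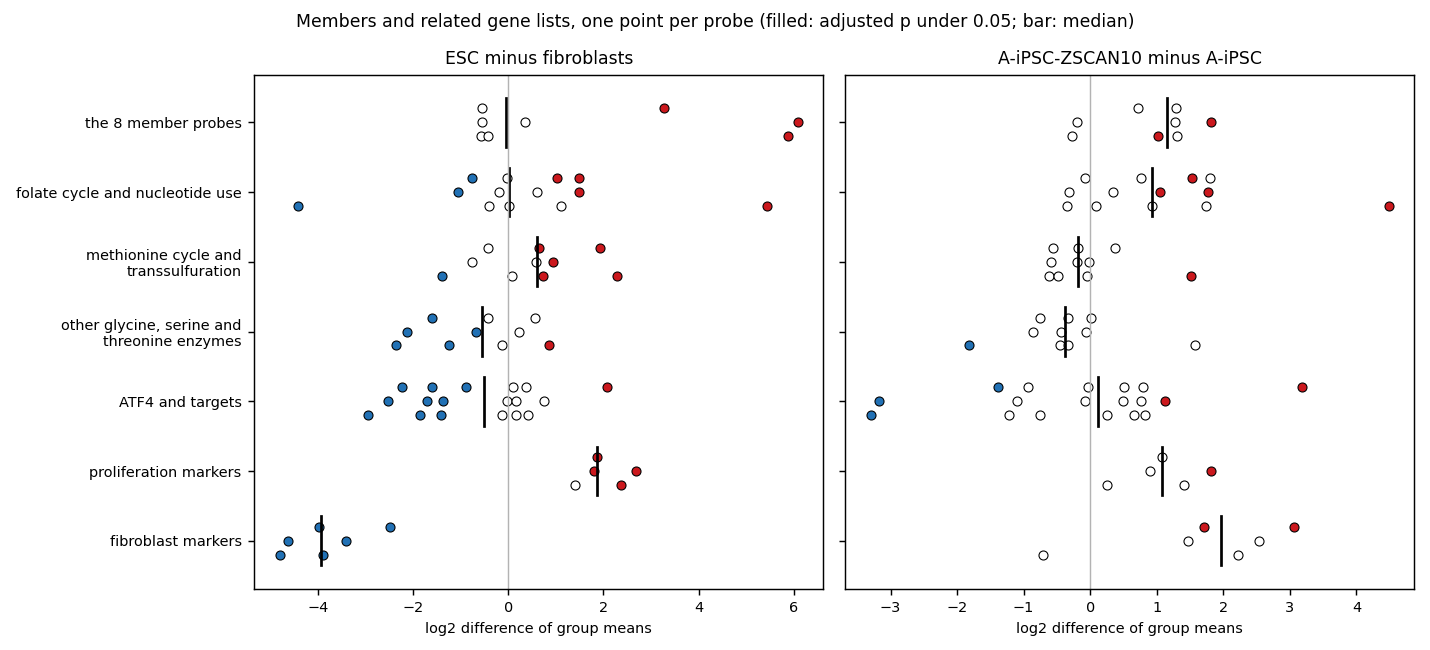
Log2 difference of group means (horizontal axis) for the 8 member probes and for gene lists (vertical axis), 1 point per probe, in ESC against fibroblasts (left) and A-iPSC-ZSCAN10 against A-iPSC (right), filled at an adjusted p under 0.05, red higher and blue lower, with a bar at the median. The members' median is -0.04 on the left and 1.15 on the right, where the median of the fibroblast markers is 1.97.

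Markers of other cell states moved in the same comparisons. In A-iPSC-ZSCAN10 against A-iPSC 2 of 6 tested fibroblast markers were higher, Col1a1 by 3.07 ± 0.67 (adjusted p = 0.0111) and Pdgfrb at least 2.42-fold (adjusted p = 0.0166), with a median of 1.97. The summed signal of 8 fibroblast markers was 3164 to 4158 in A-iPSC-ZSCAN10, 1294 to 1588 in A-iPSC, 2524 to 2935 in ESC and 12506 to 46339 in fibroblasts. Of these 8 markers, 6 were detected on each A-iPSC-ZSCAN10 array and 3 and 2 on the A-iPSC arrays. Of 4 tested keratinocyte markers 1 was higher and 0 lower: Krt14, a basal keratin, read 11.96 and 12.24 with ZSCAN10 while no A-iPSC array detected it, a difference of at least 128.2-fold (adjusted p = 0.00524). The summed signal of 6 keratinocyte markers was 5999 to 6997 against 1254 to 1323, and Krt5 and Krt1 were not detected on any of these 4 arrays. Of 8 pluripotent markers 1, Dppa5a, was higher (2.99 ± 0.86, adjusted p = 0.0353) and 0 lower. Of 5 tested proliferation markers 1, Mcm2, was higher (1.82 ± 0.56, adjusted p = 0.047), and 0 lower. Over all probes in A-iPSC-ZSCAN10 against A-iPSC, 7.33% were higher and 8.37% lower. Krt14 was also at least 54.4-fold lower in A-iPSC than in Y-iPSC (adjusted p = 0.0178 by limma). Against Y-iPSC, A-iPSC-ZSCAN10 differed in Krt14 by 1.24 ± 1.34 and did not pass (adjusted p = 0.801 by limma). The summed keratinocyte signal was 5620 and 2224 on the Y-iPSC arrays. The part of these markers in the differences of Shmt2, Psat1 and the folate genes was not tested. Esrrb, Nanog and Zfp42 were higher in ESC than in every iPSC group, as Gldc was, and their part in its difference was not tested.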

How the data were processed

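Bead signals and detection p-values were deposited by the authors as a table without normalization, per the file headers, in linear intensity units. The submitters' processing notes name lumi, with no version, and the authors' value table holds the same signals in the same rank order within each array. Signals were background-corrected from the detection p-values, offset by 16, quantile normalized and put on the log2 scale (neqc, limma 3.58.1, R 4.3.3). A probe was tested when all arrays of some group had a detection p under 0.05 for it, which left 14742 of 25697 probes. Array median signals were 110.7 to 148. Symbols came from the platform annotation, updated by gene ID for 23962 of 23978 probes.

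One fit had a mean for each of 6 groups over all 14 arrays, with 11 comparisons and Benjamini-Hochberg adjustment over all tested probes. The procedure was tested on simulated data. Where no array of a group detected a probe, the fold is a bound against the lowest detected signals. Every member probe is named, up to 3 genes per list and direction among those that passed, and the 3 most correlated genes for some members. Alternatives covered background correction, scaling, offset, filter, array weights, the arrays fitted, export format and each array left out. Leaving out the second export format, fitting within it, and the contrasts of changes between origins were chosen after seeing the data. Members and lists were chosen with earlier results of these data known.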

Additional observations from a re-analysis of the deposited data

How the results depend on the processing

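Counts of member probes past the threshold moved under these settings, from the values in the report. The shares over all probes under these settings, and with 1 array left out, are not given beside them. These counts therefore describe the fits and are not read as results about the members. Array weights gave 5 in ESC against fibroblasts, 1 in Y-iPSC against Y-SC, 4 in A-iPSC against A-SC, 2 in A-iPSC-ZSCAN10 against A-SC and 6 in A-iPSC-ZSCAN10 against ESC (3 higher, 3 lower). Without the filter on dim probes they were 1 in Y-iPSC against Y-SC, 0 in A-iPSC against A-SC (with 3 at an unadjusted p under 0.05) and 1 in A-iPSC-ZSCAN10 against A-iPSC, where Shmt2 probe 1 was lost. With export format as a block they were 1 in Y-iPSC against Y-SC and 2 in A-iPSC-ZSCAN10 against A-SC. Fits on the compared arrays only gave 1 in Y-iPSC against Y-SC, 7 in A-iPSC-ZSCAN10 against ESC (4 higher, 3 lower) and 4 against A-iPSC. Median scaling gave 1 in A-iPSC-ZSCAN10 against Y-iPSC. Without the second export format, chosen after seeing the data, they were 3 in A-iPSC against A-SC, 5 in A-iPSC-ZSCAN10 against A-SC and 1 in A-SC against Y-SC, and Gldc probe 2 in A-iPSC against A-SC reversed to -1.92. That fit holds 1 array per fibroblast group, whose spread is assumed to be that of the other groups, so these calls rest on single arrays and show no replicated difference. The cause of the reversal was not tested.

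Leaving out 1 array gave 3 to 5 in ESC against fibroblasts, 1 to 3 in Y-iPSC against Y-SC, 0 to 3 in A-iPSC against A-SC and 0 to 1 in A-iPSC-ZSCAN10 against A-SC. Against ESC it gave 2 to 2 in Y-iPSC, 3 to 3 in A-iPSC and 2 to 3 in A-iPSC-ZSCAN10. It gave 0 to 0 in A-iPSC against Y-iPSC, 0 to 0 in A-iPSC-ZSCAN10 against A-iPSC, 0 to 1 against Y-iPSC and 0 to 0 in A-SC against Y-SC. The upper value in ESC against fibroblasts came without the A-SC array that has no code, where Shmt2 probe 1 (-0.85, adjusted p = 0.0207 by limma) and Psat1 (-0.67, adjusted p = 0.0176) also passed. Of 88 member values, 47 passed in no fit. No paired analysis was possible because the replicate numbers and codes only name arrays and pair none across groups. With an offset of 50, Gldc in ESC against fibroblasts was 4.75 and 5.53 higher. Groups of 2 arrays and probes near background limit what could be called.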
